A study of Mus musculus with 24 samples.

Results

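The 10 genes described here are markers of neuronal differentiation: Elavl3, Elavl4, Tubb3, Dcx, Map2, Stmn2, Nefl, Nefm, Snap25 and Syt1. They were taken by symbol from the expression tables of a series on the Huntington's disease gene Htt in mouse embryonic stem cells (mESC) and in neural progenitor cells (NPC) differentiated from them. All 10 had a row in the NPC table of 16024 genes and 9 had a row in the mESC table of 17501 genes, out of 17953 genes named in either. Dcx has no row in the mESC table. RNA was sequenced from 24 libraries, 2 for each of 6 Htt genotypes in each cell type. The genotypes were wild type (WT), a knockout of Htt (KO), and 4 lines with 1 Htt allele knocked in to carry 20, 50, 92 or 111 CAG repeats (Q20, Q50, Q92, Q111). The growth protocol gives 89 repeats for the line that the sample titles call Q92. Each knock-in line keeps a wild-type allele. Stem cells were grown with serum and leukemia inhibitory factor on feeder fibroblasts. Progenitors were kept on laminin with FGF and EGF, which hold neural stem cells in a dividing state. The number of clones behind each genotype, the parent line of WT and KO, and whether both libraries of a group came from separate differentiations are not given in the sources used here. The series calls the libraries biological samples, and the p-values measure only the spread between these libraries, which may be technical.

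As background, a neural progenitor that leaves the cell cycle switches on RNA-binding proteins of the Elavl family, then the tubulin, doublecortin and stathmin proteins that shape a growing neurite, and later neurofilaments and the release machinery of the synapse. Outside neurons many of these genes are held down by the repressor REST, which binds the RE1 element, and Stmn2 was among the first genes shown to carry one. Proneural transcription factors act in the other direction through E-box sequences. Expanded CAG repeats in Htt cause Huntington's disease, in which neurons of the striatum degenerate.

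The genes lie on 9 chromosomes of GRCm38. Elavl3 lies on chromosome 9 from 22015005 to 22052023, Elavl4 on chromosome 4 from 110203722 to 110351909, Tubb3 on chromosome 8 from 123411424 to 123422015, and Dcx on chromosome X from 143855842 to 143933311. Map2 lies on chromosome 1 from 66175273 to 66442583, Stmn2 on chromosome 3 from 8509360 to 8561606, Snap25 on chromosome 2 from 136713453 to 136782428, and Syt1 on chromosome 10 from 108497650 to 109010982. Nefl, on chromosome 14 from 68083863 to 68089095, lies wholly inside the gene model of Nefm, from 68082590 to 68124846 on the opposite strand. Whether the counting used strand is not given in the sources used here, so reads of Nefl and Nefm cannot be told apart where their models overlap. The Tubb3 model lies inside a longer model on the same strand, Gm20388, which has no row in either table.

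RefSeq promoter windows, from 250 bases before to 50 after a start site on GRCm38.p6, were matched for 6 of the 10 genes, with 11 entries. The 5 windows below are shown because Tubb3, Dcx and Elavl3 had their highest mean in the same progenitor line, Elavl4 in another, and Map2 its lowest in the first. Each is written from 5′ to 3′ on the strand of the gene. Capitals mark the E-box letters CAGCTG and CAGATG and 2 pieces of the RE1 element, CAGCACC and GGACAGC, on either strand.
Tubb3, chr8:123411303-123411602, plus strand: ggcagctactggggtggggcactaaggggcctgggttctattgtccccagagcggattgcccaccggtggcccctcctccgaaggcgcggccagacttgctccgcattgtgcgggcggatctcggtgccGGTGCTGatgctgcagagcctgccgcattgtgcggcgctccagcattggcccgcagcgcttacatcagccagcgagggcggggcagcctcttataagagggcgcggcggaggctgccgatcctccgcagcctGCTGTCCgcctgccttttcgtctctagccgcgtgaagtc
Dcx, chrX:143933170-143933469, minus strand: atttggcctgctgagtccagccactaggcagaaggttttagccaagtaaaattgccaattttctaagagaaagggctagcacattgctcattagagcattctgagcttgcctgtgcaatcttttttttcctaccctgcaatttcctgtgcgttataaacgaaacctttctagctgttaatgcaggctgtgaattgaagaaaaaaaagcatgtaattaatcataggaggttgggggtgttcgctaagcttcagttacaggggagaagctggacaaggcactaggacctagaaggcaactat
Elavl3, chr9:22051974-22052273, minus strand: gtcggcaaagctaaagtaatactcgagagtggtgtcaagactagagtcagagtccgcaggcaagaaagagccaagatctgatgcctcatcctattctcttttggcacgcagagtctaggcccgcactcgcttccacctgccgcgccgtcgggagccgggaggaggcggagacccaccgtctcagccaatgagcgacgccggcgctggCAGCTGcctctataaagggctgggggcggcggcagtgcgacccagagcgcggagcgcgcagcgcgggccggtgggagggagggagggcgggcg
Elavl4, chr4:110287478-110287777, minus strand: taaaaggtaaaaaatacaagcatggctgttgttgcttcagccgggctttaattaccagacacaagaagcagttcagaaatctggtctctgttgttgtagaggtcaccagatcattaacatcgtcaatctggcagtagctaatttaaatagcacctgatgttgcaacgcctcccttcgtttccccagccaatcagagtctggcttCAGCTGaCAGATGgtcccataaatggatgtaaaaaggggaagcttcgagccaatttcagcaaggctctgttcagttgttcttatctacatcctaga
Map2, chr1:66175079-66175378, plus strand: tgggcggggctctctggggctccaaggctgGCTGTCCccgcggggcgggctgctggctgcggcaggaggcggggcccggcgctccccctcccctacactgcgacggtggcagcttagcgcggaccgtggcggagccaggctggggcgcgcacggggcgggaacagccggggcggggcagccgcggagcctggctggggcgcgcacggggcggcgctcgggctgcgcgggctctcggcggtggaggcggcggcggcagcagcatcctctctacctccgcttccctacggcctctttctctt
The Tubb3 window holds both RE1 pieces on the reverse strand, at positions -121 and 11 from the start site, and Map2 holds the second alone. The letters CAGCTG stand at position -43 in Elavl3 and at -46 in this Elavl4 window, where the second E-box follows. Of the other 5 windows of Elavl4 and Syt1, 3 hold 1 of these E-boxes or both. Among the 3 is an Elavl4 window that overlaps the printed window and holds the same sites. Another Elavl4 window holds neither. Dcx holds none of the marked letters, and it and Elavl3 hold the TATA box letters TATAAA. A further E-box, CACGTG, was in none of the matched windows. The comparison used 32851 full-length promoter windows, with those of a single chromosome left out. Of these, the first E-box was in 16.3%, the second in 17.2%, and the third in 7.15%. The first RE1 piece was in 7.14% of them, the second in 6.56%, and the TATA box letters in 13.6%. A match is a description of the letters and not a bound site.

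The values are normalised CPM (counts scaled to library size), scaled separately in each table, so levels were not tested between cell types. Depth ran from 58546211 to 81502284 reads per mESC library and from 48525333 to 118038952 per NPC library. In mESC the first principal component, with 31.0% of the variance, separated replicate numbers 1 and 2 in every genotype, and the second, with 18.0%, set the Q20 libraries apart. In NPC the first component, with 29.8%, set the Q20 libraries apart from the rest, and the results below that rest on Q20 carry that gap. Htt itself, the check of the labels, was lower in both KO than in both WT libraries of NPC (100.1 and 94.9 against 137 and 177 CPM), a log2 change of -0.67 with an adjusted p of 0.0673 in limma. In mESC, KO replicate 1 stood at 139 CPM and replicate 2 at 68.5, against 124 and 113 in WT, so Htt level did not separate the groups labelled KO and WT there. The tissue labels were met by the defining genes Pou5f1, Nes and Fabp7, except that both Q20 NPC libraries also held Pou5f1, with a log2 change of 6.03 from WT. Nanog was also higher there, by 2.81. Sox2, of the progenitor list, has no row in either table. The stem cell gene Pou5f1 stood at 280 to 880 CPM in mESC, and the progenitor genes Nes and Fabp7 at 353 to 1273 and 1194 to 3921 CPM in NPC.

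In NPC the Q20 line stood apart in these neuronal genes, as it did over all genes on the first component. Compared with WT, 7 of the 10 genes were higher and 1, Map2, was lower, against 9.97% and 4.57% of all genes. Stmn2 led with 103 and 128 CPM against 0.175 and 0.356, and Nefl, Nefm, Dcx, Tubb3, Elavl4 and Snap25 followed. Q20 had the highest mean of the 6 genotypes for 7 genes, and for 6 of those its libraries lay clear of every other library. Elavl3 was the exception. The share of all genes with that pattern was not computed. In pairs, Q20 did not overlap WT in 9 of the 10 genes, against 48.6% of all genes tested. It did not overlap Q50, Q92 and Q111 in 9, 10 and 10, against 70.1%, 77.2% and 78.2%. Elavl4 was highest in Q92, Syt1 in Q111 and Map2 in WT. A gene was called when its Benjamini-Hochberg adjusted p, over all genes tested with limma on log2(CPM + 1), was under 0.05. All 10 genes were called in the test for any difference among the 6 genotypes, where 38% of all genes tested were called. With the Q20 line left out, an alternative added after seeing the data, 9 of 10 were still called against 19.8% of all genes. The exception was Tubb3, with an adjusted p of 0.254.

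**Figure D1:**
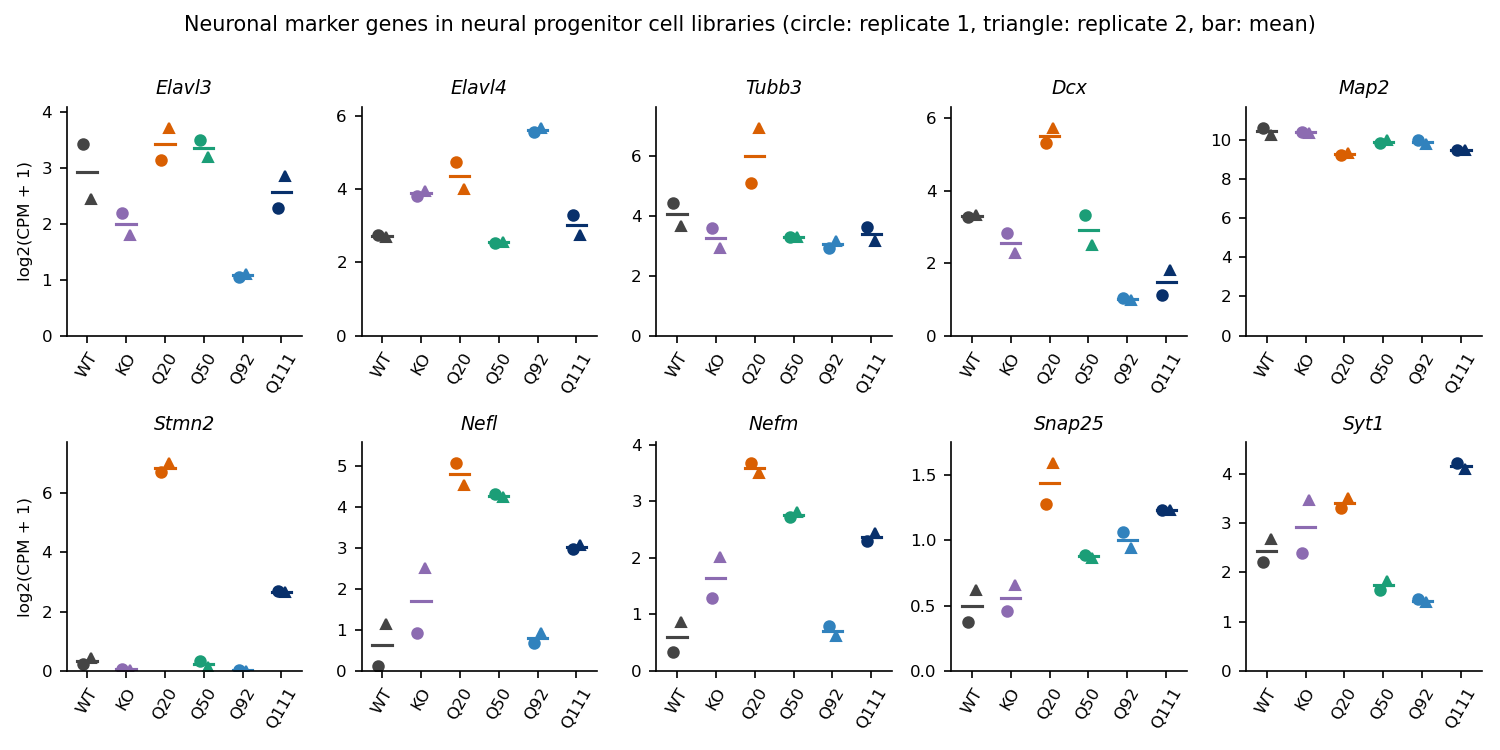
Each panel plots log2(CPM + 1) of 1 neuronal gene by genotype in neural progenitor cells, with a circle for replicate 1, a triangle for replicate 2 and a bar for their mean. Q20 is highest for Elavl3, Tubb3, Dcx, Stmn2, Nefl, Nefm and Snap25, Q92 for Elavl4 and Q111 for Syt1, while Map2 is lowest in Q20.

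The counts by comparison differed in size. KO against WT called 0 of the 10 genes with limma, against 1.42% of all genes. With edgeR it also called 0, and the share of all genes called with edgeR is not given here. In limma 3 of the 10 had an unadjusted p under 0.05, as had 1755 of all 13206 genes tested. The 3 were Elavl4 and Nefm, 1.16 and 1.05 above WT, and Elavl3 at -0.94. Without WT replicate 2, Elavl3 and Nefm were called. Q20 against WT called 8, with 7 higher and 1 lower, against 14.5% of all genes (9.97% higher and 4.57% lower). With the spread estimated from the 4 libraries of these groups alone, 4 remained: Dcx, Stmn2, Nefl and Nefm. Q50 against Q20 called 7, with 6 lower and 1 higher, against 18.8% of all genes (10.7% lower and 8.05% higher). Leaving out Q20 replicate 2, Q50 replicate 1 or Q50 replicate 2 left 4, 3 and 4 calls, and Dcx, Elavl4 and Stmn2 were among them each time. Q92 against Q20 called 9, with 7 lower and 2 higher, against 25.8% (15.9% lower and 9.88% higher). Q111 against Q20 called 6, all lower, against 28.3% (16.1% lower and 12.2% higher). Without Q111 replicate 2 the count was 2, Dcx and Stmn2, and without Q20 replicate 1 it was 3, with Tubb3 as the other. These comparisons share the Q20 libraries, and each is given on its own.

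**Figure D2:**
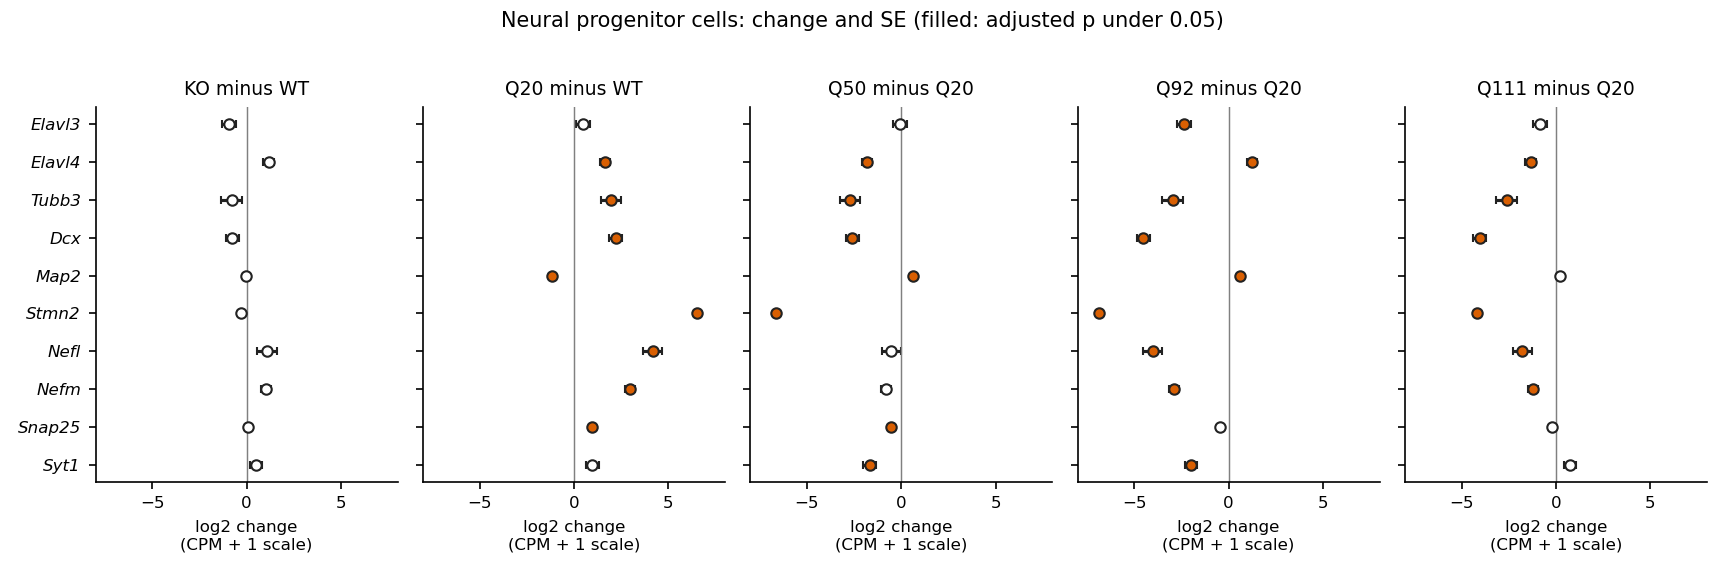
Each panel plots the log2 change with its SE for the 10 neuronal genes in 1 comparison of neural progenitor lines, filled where the adjusted p is under 0.05. Points lie mostly right of 0 for Q20 minus WT and left of 0 for the lines minus Q20, and no point is filled for KO minus WT.

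Elavl3 and Elavl4 encode RNA-binding proteins of the Hu family that stabilise neuronal messages. Elavl3 stood at 7.77 and 12.1 CPM in Q20, at 10.3 and 8.10 in Q50, at 9.72 and 4.39 in WT, at 3.87 and 6.19 in Q111, at 3.57 and 2.46 in KO, while Q92 held 1.07 and 1.14. Q92 lay clear below all other groups, and Q20, Q50 and WT overlapped. Elavl3 fell from Q20 to Q92 (log2 change -2.35, SE 0.37, adjusted p 0.00237). Elavl4 stood at 45.8 and 50.1 CPM in Q92, at 25.6 and 14.9 in Q20, at 13.1 and 14.4 in KO, at 8.72 and 5.73 in Q111, at 5.73 and 5.44 in WT, and at 4.80 and 4.86 in Q50. Both Q92 libraries lay above all others, so the line with the least Elavl3 had the most Elavl4. Elavl4 was 1.65 higher in Q20 than in WT on the log2 scale (SE 0.27, adjusted p 0.00455) and 1.25 higher again in Q92 than in Q20 (SE 0.27, adjusted p 0.0120). It fell by 1.82 in Q50 and by 1.35 in Q111 against Q20. The rise to Q92 was not called without Q20 replicate 2 (0.88) or without either Q92 library (1.31 and 1.19), and the fall to Q111 was not called without Q111 replicate 2 (-1.08) or Q20 replicate 1 (-0.98). KO was 1.16 above WT without passing the adjustment (SE 0.27, adjusted p 0.105).

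Tubb3 encodes the neuronal beta-tubulin and Dcx the microtubule-binding doublecortin of migrating young neurons. Tubb3 stood at 32.6 and 121 CPM in Q20 and between 6.56 and 20.4 in the other 10 libraries. The Q20 libraries were the highest and differed 3.70-fold from each other. Tubb3 was 1.96 higher in Q20 than in WT (SE 0.55), with an adjusted p of 0.04998 that lay over 0.05 in 10 of 15 alternatives, which ranged from 0.0058 to 0.284. Without Q20 replicate 2 the change was 1.03, and without WT replicate 2 it was 1.58, and neither was called. Against Q20 it fell by 2.72 in Q50, by 2.95 in Q92 and by 2.61 in Q111, with SE 0.55 in each. The call was lost for Q50 without either Q50 library (-2.71 and -2.72) and for Q111 without Q111 replicate 2 (-2.39). The reads of a tubulin can also match its close relatives, and how the authors treated such reads is not given in the sources used here.

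Dcx stood at 38.6 and 52.2 CPM in Q20, at 8.72 and 9.0 in WT, at 9.03 and 4.66 in Q50, at 6.07 and 3.84 in KO, at 1.18 and 2.52 in Q111, and at 1.06 and 0.969 in Q92. Q20 was clear above and Q92 and Q111 clear below the other groups, while WT and KO lay between them and the Q50 libraries overlapped both. Dcx was 2.22 higher in Q20 than in WT (SE 0.35, adjusted p 0.00341). Against Q20 it fell by 2.61 in Q50, by 4.51 in Q92 and by 4.05 in Q111 (SE 0.35 each). All 4 of these calls held in every alternative run for them.

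Map2 encodes a microtubule-associated protein of dendrites and also has isoforms in immature neural cells. Map2 stood at 1593 and 1228 CPM in WT, at 1385 and 1338 in KO, at 927 and 1015 in Q50, at 1030 and 897 in Q92, at 732 and 714 in Q111, and at 599 and 646 in Q20. All 4 WT and KO libraries lay above all 8 knock-in libraries, and Q20 was lowest. The fall from WT to Q20 was 1.17 (SE 0.15, adjusted p 0.000982). Map2 was 0.64 higher in Q50 and 0.63 higher in Q92 than in Q20, and each of these calls was lost when either Q20 library was left out (0.59 and 0.69 for Q50, 0.57 and 0.68 for Q92), without either Q50 library for Q50 (0.71 and 0.57) and without Q92 replicate 1 for Q92 (0.53). The Q92 call was also lost with quantile normalization (0.35) and on plain CPM (0.40). Per kb of exonic sequence Map2 was by far the most abundant of the 10 in NPC, with a median of 59.0 CPM per kb. Tubb3 followed with 5.30, Elavl4 with 2.02 and Nefl with 1.71, and Stmn2 was last with 0.0381.

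Stmn2 encodes a stathmin of the growth cone that binds tubulin and supports axon regrowth. The Q20 libraries held 103 and 128 CPM and the Q111 libraries 5.51 and 5.24. WT held 0.175 and 0.356, Q50 held 0.251 and 0.0941, KO held 0.0493 and 0.0265, and Q92 held 0.0165 and 0. Q20 and, at a lower level, Q111 were clear of the other 8 libraries, in which Stmn2 was close to the limit of detection. Behind the values were 20253 reads in Q20, 777 in Q111, 39 in WT, 21 in Q50, 8 in KO and 1 in Q92. The 0 of Q92 replicate 2 allows up to 0.0469 CPM, from a floor of 3 reads. In read rates Q20 was 414-fold above WT (exact 95% interval 303 to 583) and 21.7-fold above Q111 (20.2 to 23.3), and 14515-fold above Q92 (2605 to 573332). The intervals cover counting error only. The pseudocount shrinks these ratios on the log2(CPM + 1) scale, where Q20 was 6.52 above WT (SE 0.16, adjusted p 1.69e-07). It fell by 6.63 in Q50, by 6.85 in Q92 and by 4.18 in Q111 against Q20. These 4 calls held in every alternative run.

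Nefl and Nefm encode the light and medium neurofilament subunits, which fill and widen axons. Nefl stood at 32.8 and 22.4 CPM in Q20, at 19.1 and 17.8 in Q50, at 6.88 and 7.41 in Q111, with 0.887 and 4.69 in KO, 0.594 and 0.891 in Q92, and 0.0876 and 1.22 in WT. Nefm stood at 11.8 and 10.3 CPM in Q20, at 5.55 and 6.01 in Q50, at 3.93 and 4.42 in Q111, at 1.44 and 3.03 in KO, at 0.727 and 0.532 in Q92, and at 0.263 and 0.81 in WT. Both genes took the same order of genotypes, with Q20, Q50 and Q111 clear of one another and of the rest, and with KO, Q92 and WT below them. Nefl was 4.18 higher in Q20 than in WT (SE 0.51, adjusted p 0.000834) and Nefm 2.99 higher (SE 0.26, adjusted p 0.000136). Nefl fell by 4.02 in Q92 against Q20 and Nefm by 2.88. From Q20 to Q111 Nefl fell by 1.79 and Nefm by 1.21, calls that were lost without either Q111 library or without Q20 replicate 1. Left out in turn, these libraries gave -1.52 to -1.83 for Nefl, which also lost its call without Q20 replicate 2 (-2.05), and -1.12 to -1.28 for Nefm. With edgeR the adjusted p was 0.168 for Nefl and 0.0753 for Nefm. Between Q50 and Q20 neither passed, at -0.53 for Nefl (adjusted p 0.533) and -0.82 for Nefm (adjusted p 0.0642).

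Snap25 and Syt1 belong to the release machinery of the synapse, as the SNARE protein of the nerve terminal and the calcium sensor of vesicle fusion. Snap25 was low throughout, at 1.43 and 2.02 CPM in Q20, 1.35 in both Q111 libraries, 1.09 and 0.922 in Q92, 0.851 and 0.823 in Q50, 0.374 and 0.574 in KO, and 0.298 and 0.54 in WT. The 4 knock-in lines all lay above WT and KO. Snap25 was 0.94 higher in Q20 than in WT (SE 0.15, adjusted p 0.00387), a call lost with quantile normalization (0.50, adjusted p 0.0928) and with the libraries of Q20 and WT alone (adjusted p 0.119). It fell by 0.56 in Q50 against Q20 (adjusted p 0.0347), a call lost in 7 of 14 alternatives, over which the change ran from -1.04 to -0.23. These include edgeR, and the fits without Q20 replicate 2 (-0.40) or either Q50 library (-0.57 and -0.55). Syt1 stood at 17.7 and 16.2 CPM in Q111, at 8.95 and 10.4 in Q20, at 4.26 and 10.1 in KO, at 3.61 and 5.36 in WT, at 2.13 and 2.55 in Q50, while Q92 held 1.75 and 1.63. Q111 lay clear above all other libraries, and Q50 and Q92 clear below. Syt1 fell by 1.68 in Q50 (adjusted p 0.00931) and by 1.99 in Q92 (adjusted p 0.00329) against Q20, with SE 0.33 in both. The fall to Q50 was not called without Q20 replicate 2 or without Q50 replicate 1 (-1.58 in both). The differences of 0.98 from WT to Q20 and of 0.75 from Q20 to Q111 did not pass (adjusted p 0.0937 and 0.120).

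Set against WT in place of Q20, a reference added after seeing the data, the longer alleles gave these counts. Q50 differed from WT in Nefl and Nefm only (2 of 10 genes, against 6.62% of all genes), with log2 changes of 3.65 (SE 0.51, adjusted p 0.00418) and 2.16 (SE 0.26, adjusted p 0.00204). Q92 differed in 3 (against 8.66%). Elavl4 was 2.89 higher, and Dcx and Elavl3 fell by 2.29 and 1.85. Q111 differed in 7 (against 16.6%), of which 5 were higher and 2 lower. Higher were Stmn2 by 2.34, Nefl by 2.39, Nefm by 1.77, Syt1 by 1.73 and Snap25 by 0.73, and Dcx and Map2 fell by 1.83 and 0.95. Tubb3 was called in none of the 3 lines.

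**Figure D3:**
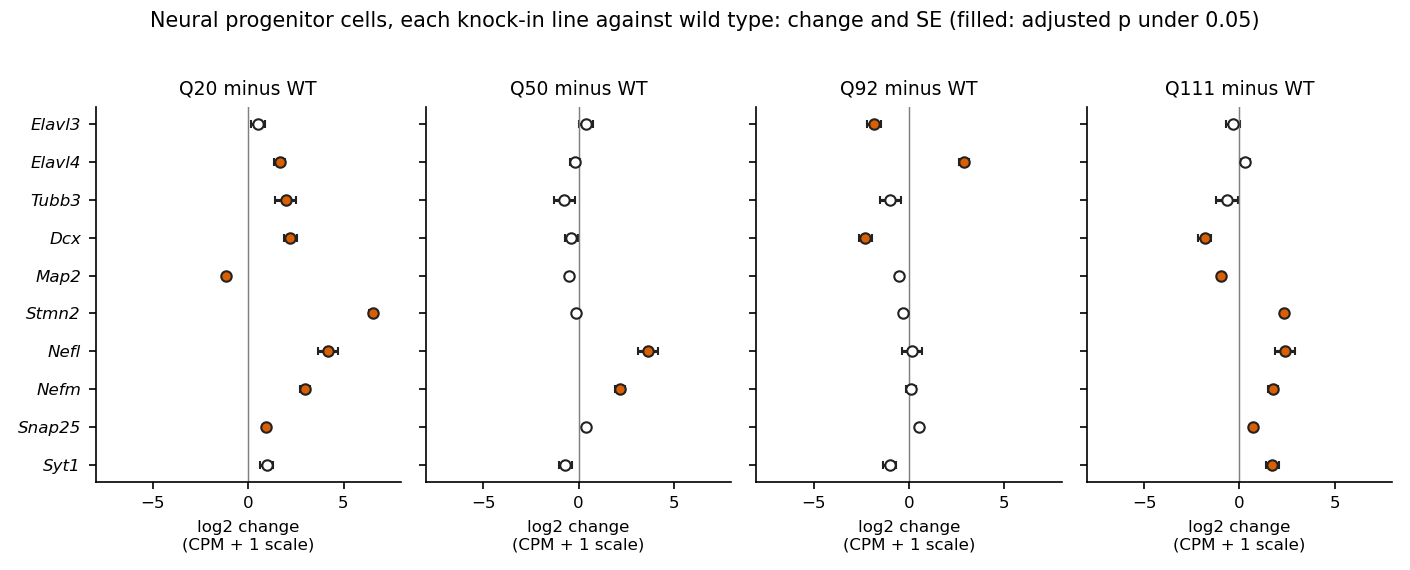
Each panel plots the log2 change with its SE for the 10 neuronal genes in 1 knock-in line minus wild type in neural progenitor cells, filled where the adjusted p is under 0.05. Neurofilament genes are filled in Q20, Q50 and Q111, Stmn2 in Q20 and Q111, and Elavl4 in Q20 and Q92.

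Over the 8 knock-in libraries of NPC, the slope on CAG length called 1 gene, which fell, against 22% of all genes (10.1% lower and 12% higher). Dcx fell by 4.19 over the 91 repeats from 20 to 111 (SE 0.65, adjusted p 0.00434). The group means of Dcx did not fall at each step, since Q111 lay above Q92. The call rested on Q20: without that line the slope was -2.48 with an adjusted p of 0.0961, and with 1 mean per line it was 0.295. Over 25 alternatives the adjusted p ran from 0.00105 to 0.295. Without the Q50, Q92 or Q111 line, 3, 3 and 5 genes were called, with Dcx among them each time. The share of all genes called in these fits is not given here, so the counts cannot be set against it. Length differed only between 4 lines, so length and line cannot be told apart.

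Other neuronal genes were read from 4 lists that hold none of the 10. Their counts for Q20 against WT stand beside 14.5% of all genes called there (9.97% higher and 4.57% lower). In that comparison 12 of 28 cytoskeleton and RNA-binding genes were called, 11 higher and 1 lower, with a median log2 change of 0.64 against -0.02 over all genes. Nefh, the heavy neurofilament, was 1.55 higher, the stathmin Stmn4 1.42 and the adhesion molecule L1cam 1.28. Of 28 synaptic vesicle and release genes 8 were called, 7 of them higher, with a median of 0.45, led by Dnm1 (1.83), Syt4 (2.18) and Scg2 (2.92). Of 16 neuronal transcription factors 8 were called, 7 of them higher, with a median of 0.60, led by St18 (2.26), Myt1l (2.16) and Neurod4 (2.15). Of 9 transmitter genes 2 were called, Gad2 with a rise of 1.56 and Gria2 with a fall of 0.52. Myt1l and Gad2 reached 1 CPM only in the Q20 libraries and were tested only through them. Genes kept in this way tilt the counts and medians of these lists towards a high Q20, in every comparison with Q20. How many other genes were kept in this way was not counted. Against Q20, 9 of these 16 transcription factors were called lower in each of Q50, Q92 and Q111, and 0, 3 and 1 were called higher. Of all genes, 10.7%, 15.9% and 16.1% were called lower in those lines. The 11 tested paralogues of the 10 genes, such as Tubb5, Elavl1, Snap23 and Syt7, had 0 calls in Q20 against WT. The 13 genes of the REST complex had 0 calls as well. Against Q20 the paralogues had 1 call in Q50 (Map4, higher), 1 in Q92 (Snap47, lower) and 3 in Q111, and 4 rose along CAG length. In Q111 Map4 and Elavl1 were 0.50 and 0.88 higher, and Syt7 fell by 1.67. The REST complex had 2 calls in Q50, both lower, 3 in Q92, all higher, and 5 in Q111, 2 higher and 3 lower. Among them the corepressor Rcor2 fell by 1.25 in Q50 and by 1.41 in Q111, and the deacetylase Hdac2 was 0.60 higher in Q92 and 0.76 in Q111. Of all genes, 18.8%, 25.8% and 28.3% were called in these lines against Q20, and 22% along CAG length. Rest itself stood at 70.0 to 135 CPM over all 12 NPC libraries and was called in no comparison.

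Markers of other cell types moved in the same libraries. Their counts for Q20 against WT also stand beside 14.5% of all genes called there (9.97% higher and 4.57% lower). Pou5f1, the core stem cell factor, stood at 90.1 and 87.4 CPM in Q20 and at most 0.405 in the other 10 NPC libraries, and Nanog at 13.0 and 13.7 against at most 1.63. Of 6 pluripotency genes tested these 2 were called in Q20 against WT, higher by 6.03 and 2.81, and the list, with 8 of 12 genes in the table, summed to 109 and 107 CPM in Q20 and to 6.46 to 34.8 elsewhere. None of these 8 was at 0 in both Q20 libraries, and Zfp42, Dppa5a, Utf1 and Fgf4 have no row. Pou5f1 reached 1 CPM only in Q20 and was tested only through that line. In the mESC table, which is scaled separately, Stmn2 stood at 173 to 391 CPM, Tubb3 at 10.3 to 205 and Nefl at 12.5 to 79.7. The other neuronal genes with a row stood at no more than 32.7 CPM there, the highest value of Map2. The mesoderm genes T and Eomes rose by 2.07 and 2.25 and the endoderm gene Gata4 fell by 0.74, so that 3 of 4 germ layer genes were called. Of 9 astrocyte genes 3 were higher, led by Gfap (4.00), with summed levels of 5734 and 5002 CPM in Q20 and 2803 to 5396 in WT. Of 8 oligodendrocyte genes 3 were higher and 2 lower, with Mbp up by 3.66. Of 11 feeder fibroblast genes 6 were higher, led by Col1a2 (4.24), with sums of 564 and 478 CPM in Q20 and 261 and 369 in WT. The 12 proliferation genes had 0 calls, and 1 of 14 progenitor genes, Prom1, was higher. Progenitor genes summed to 4604 and 4767 CPM in Q20 and to 5640 to 9825 in the other groups. The part of these other cell types in the neuronal values was not tested. In bulk RNA, more cells of a type and more RNA per cell cannot be told apart.

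**Figure D4:**
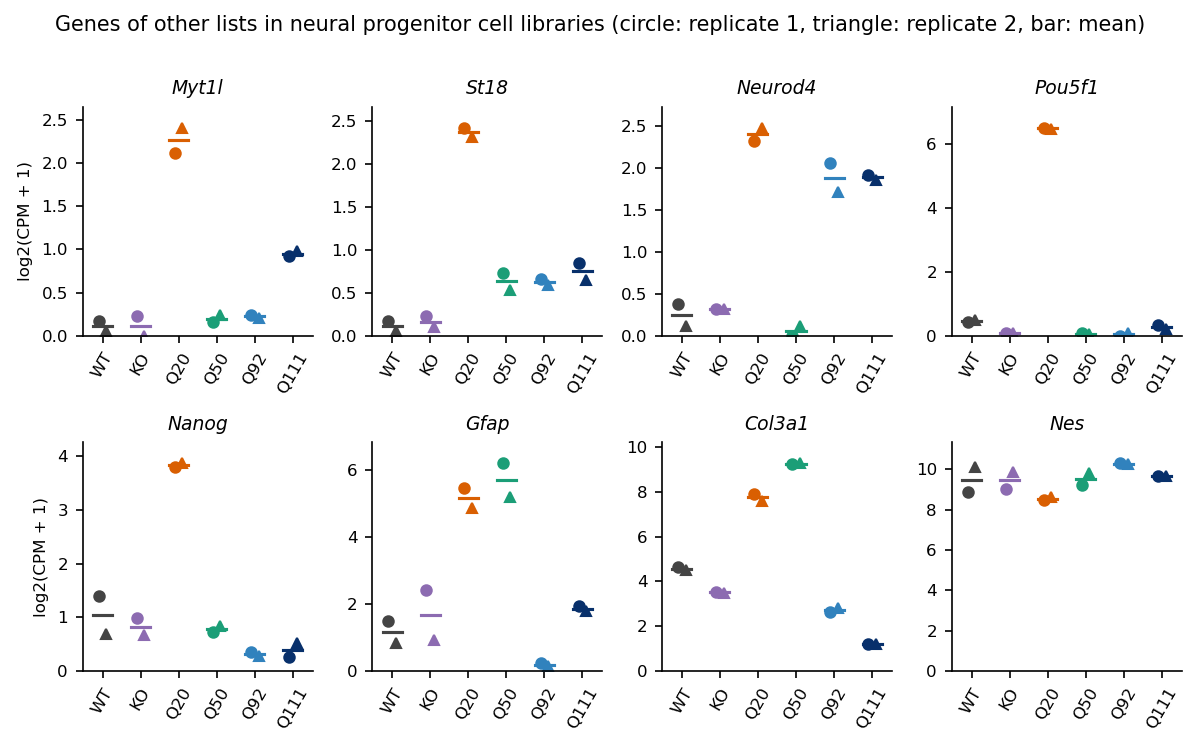
Each panel plots log2(CPM + 1) by genotype in neural progenitor cells for 3 neuronal transcription factors (Myt1l, St18, Neurod4), 2 stem cell genes (Pou5f1, Nanog), an astrocyte gene (Gfap), a fibroblast gene (Col3a1) and a progenitor gene (Nes), with a circle for replicate 1, a triangle for replicate 2 and a bar for the mean. Pou5f1, Nanog, Myt1l and St18 are highest in Q20, while Gfap and Col3a1 are high in both Q20 and Q50.

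Other lines differed in these markers too. Fibroblast genes summed to 1217 and 1320 CPM in Q50, and 7 of 11 rose from Q20 to Q50, while 9 of 11 fell from Q20 to Q92. Astrocyte genes fell in 8 of 9 cases from Q20 to Q92 and in 7 of 9 to Q111, where their sums were 633 and 931 and then 1060 and 1059 CPM. Along CAG length 11 of 12 proliferation genes rose, led by Pcna (1.79). Of all genes, 8.05% were called higher in Q50 than in Q20, and 15.9% and 16.1% lower in Q92 and Q111. Along CAG length 12% of all genes were called higher. Pou5f1 was at 0 and 0.0625 CPM in Q92 and at 0.244 and 0.156 in Q111. In WT, proliferation genes summed to 1838 CPM in replicate 1 and 5589 in replicate 2, and in KO to 2300 and 6126. Between those WT libraries Nefl differed 13.9-fold, Nefm 3.08-fold and Elavl3 2.21-fold, and between those KO libraries Nefl differed 5.28-fold, Syt1 2.37-fold and Nefm 2.1-fold. Nefl and Nefm were near or under 1 CPM in WT. The other neuronal genes differed by 1.03-fold to 2.03-fold in WT and by 1.03-fold to 1.86-fold in KO. Whether these differences bear on the neuronal genes was not tested.

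By Pearson correlation of log2(CPM + 1) over the 12 NPC libraries, the genes outside the 10 most like Stmn2 were Cdk18 (0.996), the sodium channel Scn1a (0.993) and Myt1l (0.992). Most like Tubb3 were the potassium channel Kcnj3 (0.957), Bmp8a (0.949) and the netrin receptor Unc5d (0.944). Most like the mean of the 10 were Sult4a1 (0.976), Slc35f2 (0.970) and the Notch ligand Jag2 (0.968). These values describe the libraries. They share the gap between Q20 and the rest, since Scn1a stood at 7.24 and 7.96 CPM in Q20 and at most 2.22 elsewhere. Cdk18, Myt1l and Bmp8a reached 1 CPM only in Q20. Kcnj3 and Unc5d reached it in Q20 and in a single other library. Each of these was tested only through Q20, so a likeness to genes high in Q20 was favoured in advance.

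In mESC none of the 9 genes was called in any comparison without a block for the replicate number. With that number as a block, Nefl was called in Q20 against WT (1 of 9 genes, against 10.6% of all genes), and the 9 had 0 calls in the other mESC comparisons. Stmn2 and Tubb3 were the most abundant per length, with medians of 51.1 and 52.6 CPM per kb, ahead of Nefl with 8.20. The counts with limma were 0 of 9 for KO against WT (0.0144% of all genes called), Q20 against WT (0.323%, with 0.259% higher and 0.0647% lower), Q50 against Q20 (0.00719%), Q92 against Q20 (0.00719%), Q111 against Q20 (0%), the CAG slope (0%) and any difference (0.201%). At an unadjusted p under 0.05 they were 0, 3, 1, 2, 0, 0 and 3. Of all 13916 genes tested, 553, 1716, 887, 747, 374, 358 and 1379 were under it in the same order. edgeR on the recovered reads also called 0 in each. With limma every line against WT called 0 as well (0.0144%, 0.0719% and 0.316% of all genes for Q50, Q92 and Q111).

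**Figure D5:**
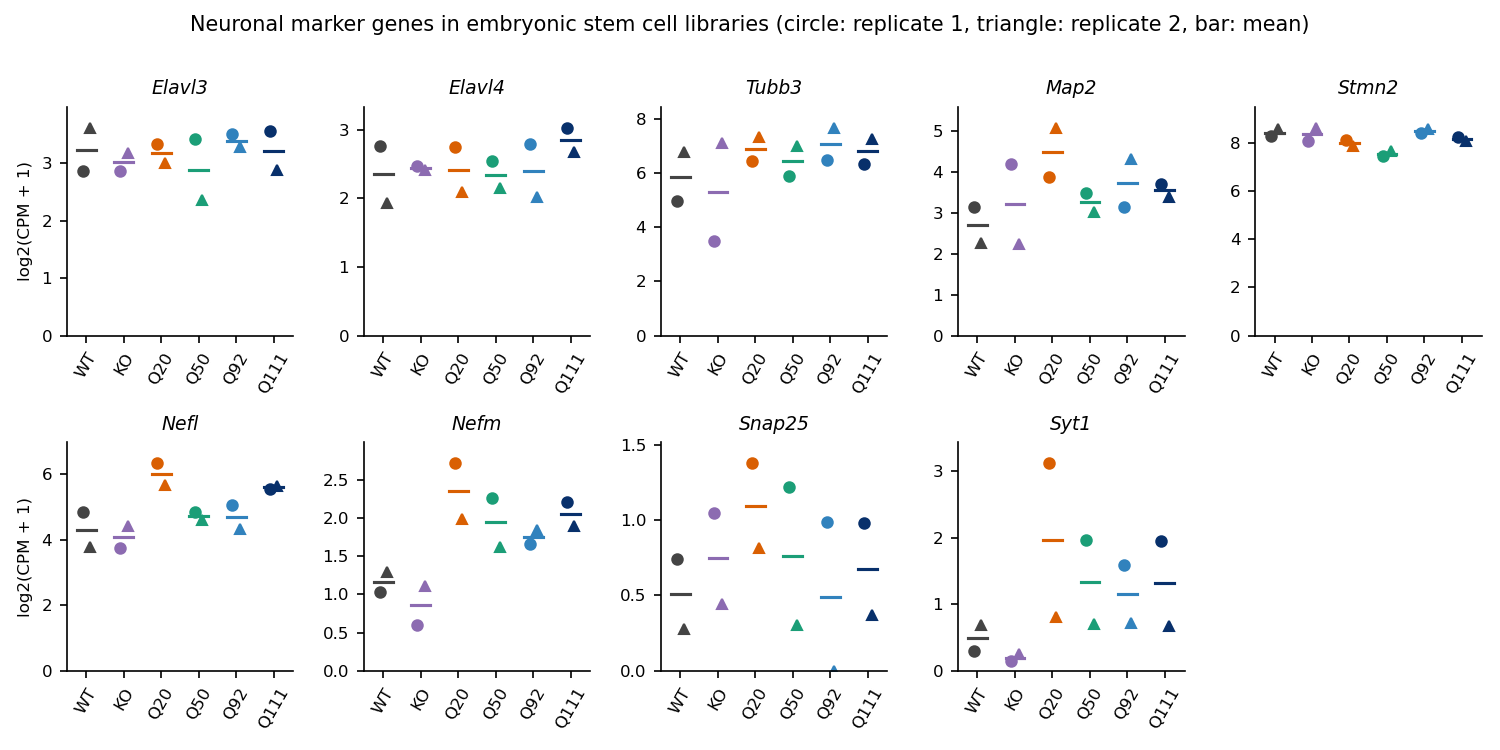
Each panel plots log2(CPM + 1) of 1 neuronal gene by genotype in embryonic stem cells, with a circle for replicate 1, a triangle for replicate 2 and a bar for their mean. Tubb3 is higher in replicate 2 of all 6 genotypes, Snap25 and Elavl4 are higher in replicate 1, and Nefl is highest in Q20.

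Tubb3 in mESC stood at 30.1 and 108 CPM in WT, at 10.3 and 138 in KO, at 87.9 and 163 in Q20, at 58.2 and 129 in Q50, at 88.0 and 205 in Q92, and at 80.7 and 155 in Q111. Replicate 2 was above replicate 1 in 6 of 6 genotypes, and all replicate 2 values lay above all replicate 1 values. Elavl4 and Snap25 were above in replicate 1 in 6 of 6. Stmn2 stood at 310 and 376 CPM in WT, at 270 and 391 in KO, at 276 and 232 in Q20, at 173 and 198 in Q50, at 339 and 374 in Q92, and at 297 and 267 in Q111. Q50 lay below all other groups. Nefl stood at 79.7 and 49.8 CPM in Q20, at 45.8 and 48.8 in Q111, at 27.9 and 23.3 in Q50, at 31.9 and 18.9 in Q92, at 27.5 and 12.7 in WT, and at 12.5 and 20.3 in KO. Q20 lay clear above all other libraries, as in NPC. The difference from WT, 1.70 (SE 0.43), had an adjusted p of 0.145 without the replicate block and of 0.0329 with it (SE 0.38). Map2 stood between 3.69 and 32.7 CPM, Elavl3 between 4.10 and 11.2, Elavl4 between 2.83 and 7.18, and Nefm between 0.522 and 5.60. Syt1 ran from 0.11 to 7.72 CPM and Snap25 from 0 to 1.60, where the 0 allows up to 0.0488 CPM. Over the 12 mESC libraries the genes most like Stmn2 were Fam161b (0.902), Sem1 (0.865) and Zfp110 (0.855), those most like Tubb3 were Tepsin (0.935), Hgh1 (0.935) and Ybx3 (0.934), and those most like the mean of the 9 were Rhbdl3 (0.966), Arpc1b (0.940) and Bicdl2 (0.937), as correlations over libraries that share the gap between replicate numbers. In mESC, 1 of 23 synaptic genes, Rims1 (1.71), and 2 of 10 feeder fibroblast genes, Col1a2 (3.66) and Col1a1 (2.87), were higher in Q20 than in WT. With the replicate block these counts were 1 and 6. Of all genes, 0.323% were called there without the block and 10.6% with it. Feeder genes summed to 20.4 to 25.7 CPM in WT and KO and to 76.1 to 137 in the knock-in lines, and their part in the values was not tested.

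The change between cell types was tested as a difference of differences over the 9 shared genes. For KO against WT 0 of 9 passed in limma (0.0406% of all genes, with 0.0325% higher and 0.00812% lower). At an unadjusted p under 0.05 there were 2, against 680 of all 12321 genes tested. For the CAG slope 0 of 9 passed (4.86%, with 2.7% higher and 2.16% lower). At an unadjusted p under 0.05 there were 3, against 2521 of all 12321. The difference in slope was -4.45 for Stmn2 (SE 2.14, adjusted p 0.256), -2.53 for Tubb3 (SE 1.00, adjusted p 0.164) and -2.46 for Nefl (SE 1.14, adjusted p 0.239). Without the Q111 line Nefm passed.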

How the data were processed

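Total RNA was sequenced with paired-end reads (Illumina NextSeq 500, per the labels' protocols) in 24 libraries of 12 groups. Per the submitters' processing notes, CASAVA 1.8, STAR and GRCm38.p6 were used; the counting tool, its use of strand and the gene filter are not given in the sources used here. The authors deposited a normalised CPM signal in 1 table per cell type. In each column 100% of the values were whole multiples of 1 step (tolerance 0.01), which gave back the reads. The depth per library is in the report, and its counting error is small beside the spread between libraries except for genes with few reads.

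Tests ran on log2(CPM + 1) in limma 3.58.1 in R 4.3.3 (variance trend, two-sided, Benjamini-Hochberg over all genes tested, call under 0.05), since the values are normalised. edgeR 4.0.16 on the recovered reads was an alternative. Genes with at least 1 CPM in at least 2 libraries were tested, 13916 in mESC and 13206 in NPC, and 12321 in both. All 6 groups of a cell type entered 1 fit and shared 1 estimate of spread. The CAG slope used the 8 knock-in libraries and is the log2 change over 91 repeats. WT as the reference for the longer alleles, and the test of any difference without Q20, were chosen after seeing the data. In mESC, replicates 1 and 2 differed alike in all genotypes (r of the differences over 0.1 in 15 of 15 pairs of groups, 0.25 to 0.547), a pairing read from the data, since the labels give only the number. The code was tested on simulated data.

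The named genes were the 10 members and Htt, and from each list at most the 3 called genes with the smallest adjusted p per comparison, and, for likeness, the 3 other genes with the highest correlation. Rest and other genes of the lists named with levels were chosen after their values were seen. The 13 lists were neuronal cytoskeleton and RNA-binding, synaptic, transmitter, neuronal transcription factor, paralogue, REST complex, progenitor, astrocyte, oligodendrocyte, pluripotency, feeder fibroblast, germ layer and proliferation genes. The members and lists were chosen with earlier results of these data known. Positions and exonic lengths came from GENCODE M21 on GRCm38 by Ensembl identifier, and promoter windows from RefSeq.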

Additional observations from a re-analysis of the deposited data

How the results depend on the processing

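With 2 libraries a group, a single library decided many calls, and genes under 1 CPM, such as Stmn2 outside Q20 and Q111 or Snap25, rest on few reads. Of 31 called changes of single neuronal genes, 16 held in every alternative, 15 were lost in 1 or more, and 0 reversed. In mESC the counts of called genes were 0 in every alternative, except 1 (Nefl) for Q20 against WT with a replicate block. With the block no NPC count moved by over 1.5 times, and Tubb3 in Q20 against WT was lost (adjusted p 0.0681, range over its alternatives 0.0058 to 0.284). The block changed no other call of the 10 genes in the pairwise comparisons or slopes. Over all genes, it moved the mESC calls from 45 to 1475 for Q20 against WT and from 28 to 1206 for any difference. In NPC the differences between replicates 1 and 2 correlated over 0.1 in 3 of 15 pairs of groups (-0.049 to 0.467). The highest was WT with KO at 0.467, inside the range of the mESC pairs. Q50 followed at 0.170 with WT and 0.106 with KO. The main test of KO against WT in NPC left this likeness of WT and KO replicates out. Outside these pairs the NPC samples share only a number.

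In NPC, Q20 against WT called 5 genes among those with a mean of at least 5 CPM, where fewer genes were tested, and 4 when the fit held Q20 and WT libraries alone, where fewer samples set the spread. With WT as the reference, Q50 called 2 and Q92 called 3. The CAG slope called 2 with edgeR, 2 on log2 of the length, 0 with 1 mean per line, 0 without Q20, 3 without Q50, 3 without Q92 and 5 without Q111. Its difference between cell types called 1 without Q111. The cause of the other changes was not tested. Shares of all genes called are given for WT as the reference, any difference without Q20 and the mESC block. For the other alternatives they are not given here. Leaving out 1 library gave 0 to 2 called genes for KO against WT, 7 to 8 for Q20 against WT, 3 to 6 for Q50, 7 to 8 for Q92 and 2 to 5 for Q111 against Q20, and 9 to 10 for any difference. A group left with 1 library is assumed to vary like the others.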

Other observations

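The lines also differed in genes of transmitter identity. Gad2, which makes GABA, stood at 1.79 and 2.24 CPM in Q20 NPC, at 0.832 and 0.365 in Q50, and at most 0.0493 in the other 8 libraries. Tph2, the serotonin-making enzyme of the brain, stood at 1.27 and 1.22 CPM in Q111 and at most 0.232 elsewhere. Its log2 change from Q20 to Q111 was 1.11 (SE 0.09). Gad2 reached 1 CPM only in Q20 and Tph2 only in Q111, so each was tested only because that line was high. Syt13, a synaptotagmin, stood at 106 and 121 CPM in Q92 and at 4.83 and 6.10 in Q20, a log2 change of 4.15 (SE 0.40, adjusted p 0.000176, limma). Its WT libraries stood at 26.6 and 73.6 and its KO libraries at 98.9 and 118 CPM, so all 4 Q92 and KO libraries lay above both WT libraries.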
